A study of Mus musculus and Homo sapiens with 19 samples.

Results

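In one arm of a knockdown experiment 10 genes had next to no reads, and in the other arm they had clear counts. They are Vldlr, Adora1, Dapk1, Edaradd, Nkd2, Pitx1, Sall2, Ubqln2, Cplx2 and Serpina3h. They were chosen by their raw counts in 4T1, a mouse mammary tumour cell line, with results of the same libraries in view: 3 or fewer counts summed over the 3 scramble libraries and a mean of 1 CPM or more (CPM are counts per 1 M assigned counts of a library) in the 3 knockdown libraries. In all, 25 of the 24421 genes in that table (0.102%) met these thresholds, and the 10 described here are among them. Only 2 genes met the same thresholds with the arms exchanged.

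The study varied PHGDH, the first enzyme of the serine synthesis pathway, and asked how its level relates to tumour cell spread. The groups were 4T1 cells transduced with an shRNA to PHGDH (shPHGDH, n = 3) and 4T1 cells with a scramble shRNA (shSCR, n = 3), both in the pLKO.1 vector; MDA-MB-231 cells, a human breast cancer line, labelled as overexpressing PHGDH from pLHCX (n = 3) and MDA-MB-231 controls (n = 3); and 1 library each of 4T1 and of EMT6.5 sorted after growth with Bend3, of 4T1 alone and of EMT6.5 alone, of Bend3 sorted after growth with 4T1 or with EMT6.5, and of Bend3 alone. EMT6.5 is a further mouse mammary tumour line and Bend3 a mouse endothelial line, and cells of co-cultures were sorted before RNA extraction. The labels do not say whether a transduced line was a pool or a clone, or whether replicates were separate cultures, so p-values measure the spread between libraries, which may be technical.

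The genes belong to different pathways. Vldlr is a lipoprotein receptor that also binds reelin, and Adora1 is the A1 adenosine receptor, which signals through inhibitory G proteins. Dapk1 is a calmodulin-regulated kinase linked to cell death and autophagy. Edaradd is the adaptor that joins the ectodysplasin receptor to NF-kB signalling, and Nkd2 binds Dishevelled and restrains Wnt signalling. Pitx1 is a homeodomain transcription factor of hindlimb and pituitary development, and Sall2 is a zinc finger transcription factor of the spalt family. Ubqln2 carries ubiquitinated proteins to the proteasome, Cplx2 binds SNARE complexes in regulated exocytosis, and Serpina3h belongs to a mouse cluster of secreted serine protease inhibitors. CpG-rich promoters are common at genes used in many tissues, and CpG-poor promoters are more frequent at genes with restricted expression.

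The sequence just before the start of 4 of the genes is shown because these starts differ in how many CG dinucleotides they hold and overlap no annotated exon. Stretches of Cplx2, with 4 CG dinucleotides, and of the second start of Sall2, with 6, also overlap none and are not shown. Each is the 150 bases before a RefSeq start on GRCm38.p6, written 5′ to 3′ on the gene's strand, with CG dinucleotides in capitals. The windows are chr1:134235458-134235607 on the minus strand for Adora1, chr13:73847632-73847781 on the minus strand for Nkd2, chr13:12520451-12520600 on the minus strand for Edaradd and chr19:27216334-27216483 on the plus strand for Vldlr.
Adora1: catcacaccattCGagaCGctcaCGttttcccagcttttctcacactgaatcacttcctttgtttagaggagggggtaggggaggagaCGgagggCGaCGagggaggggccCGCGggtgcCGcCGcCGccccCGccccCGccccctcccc
Nkd2: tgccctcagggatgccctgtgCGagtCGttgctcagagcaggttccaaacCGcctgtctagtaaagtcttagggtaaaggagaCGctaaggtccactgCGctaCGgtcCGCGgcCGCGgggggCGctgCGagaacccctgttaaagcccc
Edaradd: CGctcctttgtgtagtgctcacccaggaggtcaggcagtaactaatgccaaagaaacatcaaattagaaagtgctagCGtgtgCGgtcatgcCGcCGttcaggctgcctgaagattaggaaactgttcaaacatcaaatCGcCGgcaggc
Vldlr: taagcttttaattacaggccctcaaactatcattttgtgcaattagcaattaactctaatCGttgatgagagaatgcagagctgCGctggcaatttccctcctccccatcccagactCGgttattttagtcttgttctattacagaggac
These stretches hold 13 CG dinucleotides for Adora1, 12 for Nkd2, 7 for Edaradd and 3 for Vldlr.

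RefSeq promoter windows, from 250 bases before a start to 50 after it, matched 7 of the genes with 10 windows in all; Ubqln2, Pitx1 and Serpina3h had no entry. The ratio of observed to expected CpG was 0.893 for Dapk1, 0.882 for Nkd2, 0.796 and 0.738 for the starts of Adora1, 0.612 and 0.664 for those of Vldlr, 0.603 for Edaradd, 0.432 for Cplx2 and 0.146 and 0.358 for those of Sall2. The Cplx2 window, chr13:54302306-54302605, lies outside the annotated gene at chr13:54371349-54383917. It does not cover the start of that gene, so its value may not describe the promoter in use. It was above 0.6 in 7 of the 10 windows, against 35.8% of the 32851 promoters in the table. That share was 71.6% for genes tested in the knockdown and 17.7% for genes with 3 or fewer counts in shSCR. The windows of these genes thus lay between 0.146 and 0.893, with Sall2 at the CpG-poor end, as in the plot of CpG content. Both sets also hold promoters above and below these values. In these windows 4 motifs were searched on both strands. TATAAA lay in 1 start of Sall2 (13.6% of all promoters hold it). GGGCGG occurred 3 times in 1 start of Adora1, 2 times in Dapk1 and 1 time in 1 start of Vldlr (35.7% of promoters). CACGTG was in none of the windows (7.15% of promoters), and TGATGNAA was in 1 start of Vldlr (3.97%). A match describes the letters and is not evidence of a bound site.

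**Figure D1:**
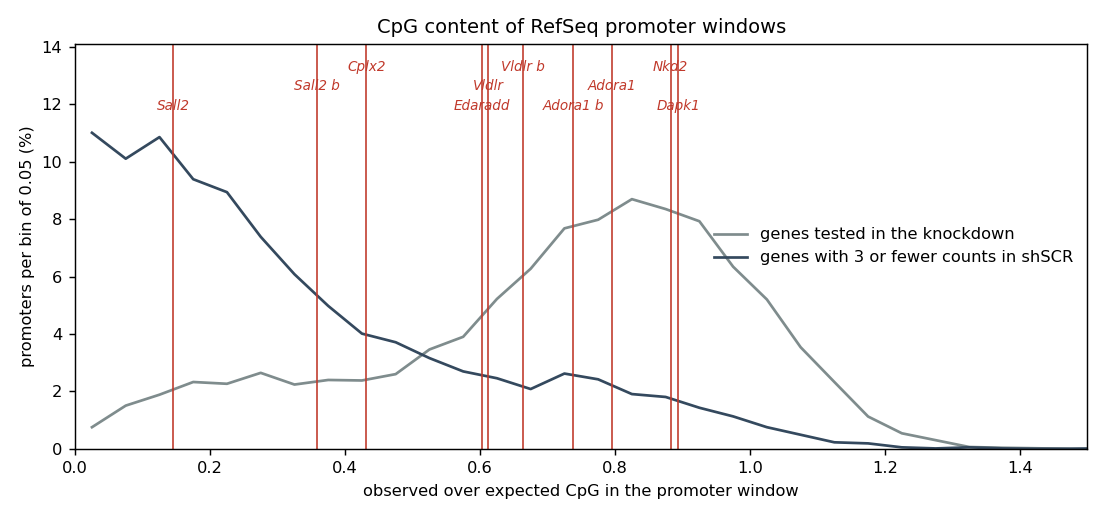
Observed over expected CpG in RefSeq promoter windows of 300 bases (x axis) against the percentage of promoters in bins of 0.05 (y axis). Lines are genes tested in the knockdown and genes with 3 or fewer counts in shSCR. Vertical lines mark the 10 windows of the genes described here (b, second start), which run from 0.146 for Sall2 to 0.893 for Dapk1. The Cplx2 window does not cover the start of the annotated gene.

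Assigned counts were 12.7 to 20.5 M per library in the knockdown, 19.5 to 23.8 M in MDA-MB-231 and 4.27 to 7.67 M in the co-culture set. Phgdh, the target, was at 20.21, 20.01 and 21.5 CPM in shPHGDH and at 170, 175 and 165 CPM in shSCR, 7.99-fold lower (edgeR adjusted p = 5.16e-28). In MDA-MB-231 PHGDH ran against its label: it was at 5.88, 4.44 and 5.56 CPM in the libraries labelled PHGDH-overexpressing and at 15.8, 16.04 and 18.5 CPM in control, 3.06-fold lower (edgeR adjusted p = 5.75e-10). Directions in MDA-MB-231 are therefore given for the libraries as labelled. Summed epithelial markers were at 3038 to 3118 CPM in shPHGDH and at 3130 to 3230 CPM in shSCR, with all 7 listed markers at 1 CPM or more in each library. Within this sum Krt8 and Krt18 were higher in shPHGDH (means of 818 CPM against 671 CPM and 1308 CPM against 916 CPM), and Epcam (241 CPM against 359 CPM), Cdh1 (560 CPM against 869 CPM), Krt19 (65.8 CPM against 132 CPM), Krt14 (85.7 CPM against 179 CPM) and Krt17 (3.82 CPM against 38.4 CPM) were lower. Markers of other cells were low. The 8 endothelial markers summed to 41.6 to 44.9 CPM in shPHGDH against 24.16 to 28.5 CPM in shSCR, nearly all of it Flt1, and the other 7 to 0.709 to 0.878 CPM against 0.530 to 1.11 CPM. In shPHGDH against shSCR, 5 leukocyte markers to 12.5 to 14.9 CPM against 8.61 to 9.96 CPM, and 5 fibroblast markers to 9.77 to 10.7 CPM against 6.48 to 8.25 CPM. Pecam1 stayed under 1 CPM in each of the 6 libraries, and Emcn was at 0 in 5 of the 6. Summed neuronal markers were at 0.370 to 0.473 CPM in shPHGDH and at 0.278 to 0.825 CPM in shSCR. The part of other cells in the results was not tested. In bulk libraries fewer expressing cells and less RNA per cell cannot be told apart.

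Both receptors had no count in shSCR. Vldlr (ENSMUSG00000024924, GRCm38 chr19:27216484-27254231) had 97, 95 and 135 counts in shPHGDH, or 5.98, 7.48 and 6.58 CPM, against 0 in each shSCR library. With a floor of 3 counts over the shSCR group, 0.0596 CPM, its level was at least 111-fold higher in shPHGDH. Adora1 (chr1:134199223-134235431) had 23, 24 and 44 counts in shPHGDH, or 1.42, 1.89 and 2.15 CPM, against 0 counts in shSCR, at least 30.9-fold higher. The groups of both genes did not overlap, which the rule itself sets. Of the 50-base stretches of the Adora1 transcripts 17.4% also occur, on the opposite strand, in Mybph, which had 0 counts in both arms.

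Of the 3 genes of intracellular signalling, Dapk1 had the highest CPM. Dapk1 (chr13:60601947-60763191) had 49, 48 and 74 counts in shPHGDH, or 3.02, 3.78 and 3.61 CPM, against 0, 0 and 2 counts in shSCR. The ratio of its summed counts, each divided by the summed library totals of the group, was 87.1, with a 95% counting interval of 23.7 to 725. Edaradd (chr13:12472632-12520438) had 22, 31 and 40 counts in shPHGDH, or 1.36, 2.44 and 1.95 CPM, and none in shSCR, at least 31.6-fold higher. Nkd2 (chr13:73818534-73847631) had 39, 17 and 35 counts in shPHGDH, or 2.40, 1.34 and 1.71 CPM, and none in shSCR, at least 30.9-fold higher. Replicates of Nkd2 and Edaradd spread by up to 1.80-fold within shPHGDH, while Dapk1 spread by 1.25-fold.

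Of the transcription factors, Pitx1 was the more abundant. Pitx1 (chr13:55825051-55836192) had 195, 163 and 291 counts in shPHGDH, or 12.01, 12.8 and 14.2 CPM, against 0, 1 and 1 counts in shSCR, a ratio of 330 (91.1 to 2734). Sall2 (chr14:52311172-52328762) had 42, 55 and 58 counts in shPHGDH, or 2.59, 4.33 and 2.83 CPM, and none in shSCR, at least 52.6-fold higher. Exons of Pitx1 overlap an antisense gene and a long noncoding gene, which share 6.79% of its 50-base stretches.

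Ubqln2 had the highest level of the 10. Ubqln2 (chrX:153498227-153501570) had 513, 384 and 663 counts in shPHGDH, or 31.6, 30.2 and 32.3 CPM, and none in shSCR, at least 530-fold higher. Cplx2 (chr13:54371349-54383917) had 30, 12 and 34 counts in shPHGDH, or 1.85, 0.945 and 1.66 CPM, and none in shSCR, at least 25.8-fold higher. Its second shPHGDH library lay under 1 CPM, the lowest single value of the set. Serpina3h (chr12:104247905-104253669) had 44, 28 and 57 counts in shPHGDH, or 2.71, 2.21 and 2.78 CPM, against 2, 0 and 0 counts in shSCR, a ratio of 65.7 (17.8 to 548). Serpina3h is uncertain, because 21.9% of its 50-base stretches also occur in Serpina3i, Serpina3g or Serpina3f.

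**Figure D2:**
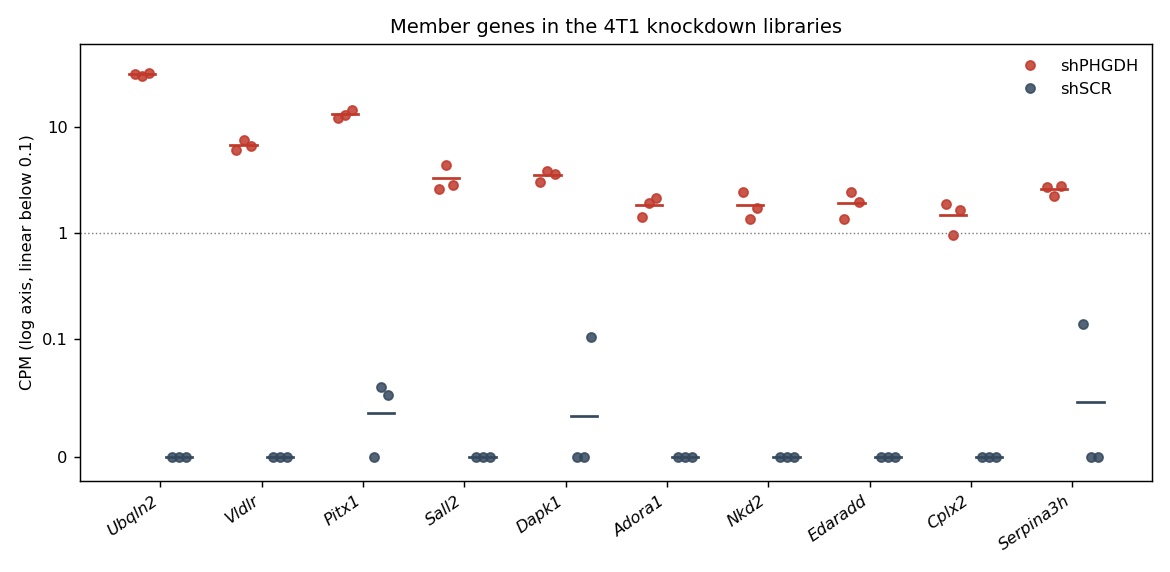
CPM of the 10 genes (y axis, log scale, linear below 0.1) in the 3 shPHGDH and 3 shSCR libraries; points are libraries, short lines group means, and the dotted line marks 1 CPM. The shPHGDH libraries lie between 0.945 CPM (Cplx2) and 32.3 CPM (Ubqln2), and 7 of the 10 genes have no count in shSCR.

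The means in shPHGDH were 31.4 ± 1.06 CPM for Ubqln2, 13.01 ± 1.097 for Pitx1, 6.68 ± 0.758 for Vldlr and 3.47 ± 0.399 for Dapk1 (SD, n = 3). They were 3.25 ± 0.945 CPM for Sall2, 2.565 ± 0.313 for Serpina3h, 1.92 ± 0.544 for Edaradd, 1.82 ± 0.369 for Adora1, 1.82 ± 0.540 for Nkd2 and 1.48 ± 0.476 for Cplx2. Per kilobase of annotated exon the order of levels was Ubqln2 (9.39 CPM per kb), Pitx1 (4.90), Serpina3h (1.79), Vldlr (0.663), Sall2 (0.598), Dapk1 (0.385), Nkd2 (0.376), Adora1 (0.314), Cplx2 (0.301) and Edaradd (0.287). Vldlr and Sall2 did not differ beyond their replicate spread, nor did neighbours in this order from Dapk1 downward. On this scale Ubqln2 stood at percentile 55.8 of the tested genes and Edaradd at percentile 4.27. All 10 genes passed the low-count filter, through shPHGDH alone, and all were called higher by edgeR, where 59.7% of the 11568 tested genes were called, 30.1% higher and 29.6% lower. That fit used the contrast that chose the genes, so no support is read from it. The shSCR library sequenced in the same lane as the shPHGDH libraries, replicate 3, had 1 count of Pitx1, 2 of Dapk1 and none of the other 8 genes.

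At the edges of the rule, Gem (1.04 CPM in shPHGDH), Kif21b (1.06) and Slit2 (1.12) lay just inside the level threshold, and Sobp (0.881), Susd4 (0.933) and Dach1 (0.9504) just outside. Serpina3g and Serpina3h with 2 shSCR counts and Kif21b with 3 lay just inside the count threshold, and Tlx3 with 4 and Hsd17b11 and Ptgs1 with 5 each lay just outside. The 5 most abundant of the 15 other genes that met the rule were Hexa, a lysosomal hexosaminidase subunit, at 4.17 CPM in shPHGDH, A230001M10Rik at 2.91, the glycosyltransferase Gcnt1 at 2.81, the chromatin organiser Satb1 at 2.73 and Serpina3g at 1.73 CPM. None of these 5 except Serpina3g neighbours one of the 10 genes.

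Pitx1, Dapk1, Edaradd, Nkd2 and Cplx2, 5 of the 10 genes, lie on chromosome 13, and 6 of the 25 genes that met the rule do. Chromosome 13 holds 406 of the 11568 tested genes. Of these 406, 248 were called higher and 32 lower in shPHGDH, with a median log2 fold change of 0.25. On chromosome 14, which holds Sall2, 315 of 372 tested genes were called higher and 3 lower, with a median of 0.51. The medians were near 0 on the chromosomes of Ubqln2 (X, -0.02) and Adora1 (1, -0.02), and 0.10 and 0.09 on those of Vldlr (19) and Serpina3h (12). Shifts were also seen on chromosomes that hold none of the 25 genes. The median was 0.28 on chromosome 15 (311 of 444 tested genes called higher) and -0.25 on chromosome 8 (434 of 624 called lower). The part of chromosome shifts in the result was not tested.

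Neighbours with 3 or fewer counts in shSCR and 18 or more in shPHGDH all lay in the Serpina3 cluster. Outside it Chil1, 9.04 kb from Adora1, had 10 counts in shPHGDH against 2 in shSCR. Among the 5 nearest annotated genes on each side of the 10, 100 in all, 39 were tested, 24 were called higher, 4 lower and 11 were not called, with a median log2 fold change of 0.26. Over all tested genes 30.1% were called higher and 29.6% lower, with a median of -0.01. That share differs by chromosome: 248 of 406 tested genes were called higher on chromosome 13, which holds 5 of the 10 genes. On chromosome 14, which holds Sall2, 315 of 372 were. The neighbours were not set against the share of their own chromosomes, so no local effect is read from their count. One of the 100 met the rule, Serpina3g, which lies 5.97 kb from Serpina3h and had 88 counts in shPHGDH against 2 in shSCR. Serpina3f and Serpina3i of the same cluster had 18 and 20 counts in shPHGDH against 0 in shSCR for each, so reads that these copies share cannot be told apart. The other neighbours called with a 2-fold change were lower in shPHGDH: Klf8, a zinc finger repressor gene 102 kb from Ubqln2, was at 4.37 CPM against 12.6 CPM, and Tert, the telomerase reverse transcriptase gene 169 kb from Nkd2, at 3.50 CPM against 7.22 CPM. The next 3 close neighbours were picked after their values were seen. Slc12a7, a cotransporter gene 1.78 kb from Nkd2, was at 58.7 CPM against 57.3 CPM and was not called (adjusted p = 0.128), and Lgals8, a galectin gene 7.69 kb from Edaradd, was at 39.9 CPM against 40.8 CPM and was not called (adjusted p = 0.974). Mettl3, the RNA methyltransferase gene 6.04 kb from Sall2, was called higher at 24.8 CPM against 16.3 CPM (log2 fold change 0.65, SE 0.08, edgeR adjusted p = 4.35e-08).

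**Figure D3:**
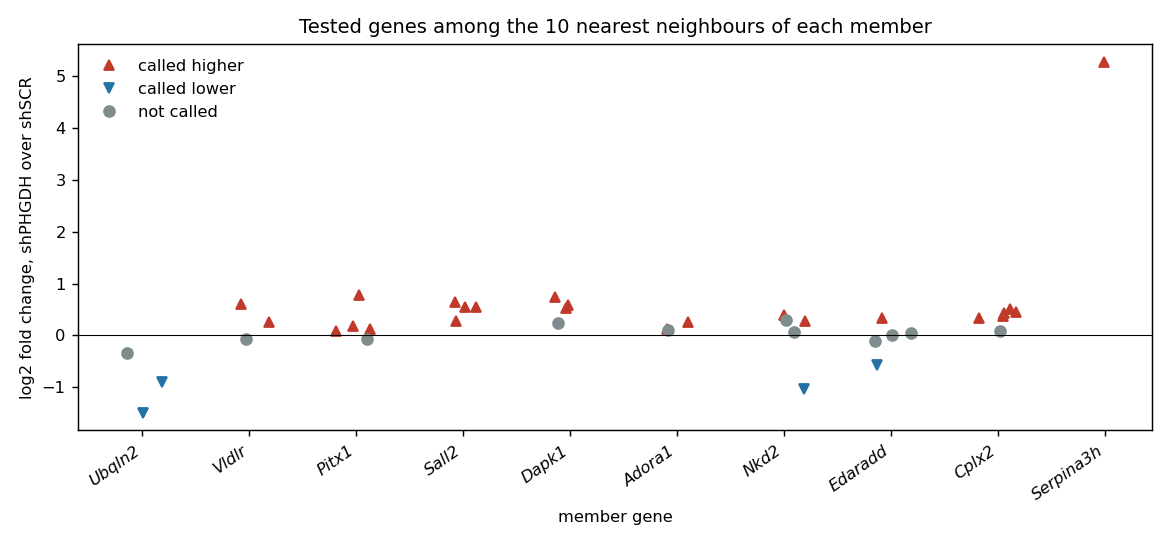
Fitted log2 fold change, shPHGDH over shSCR (y axis), of the 39 tested genes among the 10 nearest annotated neighbours of each gene (x axis), with marks for called higher, called lower and not called at an edgeR adjusted p under 0.05. Apart from Serpina3g, whose fitted value rests on 2 shSCR counts, the neighbours lie between -1.49 and 0.78.

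The co-culture libraries were not used by the rule and gave the level of the 10 genes in 4T1 cells for which the labels name no shRNA. The tables were counted separately from the knockdown table, so levels set across them are approximate. Of the 10 genes 9 were at 1 CPM or more in 4T1 with Bend3 and 7 in 4T1 alone, so most of the 10 genes had reads in 4T1 cells outside the shPHGDH arm. Among genes with 3 or fewer counts in shSCR, 3.79% reached 1 CPM in 4T1 with Bend3 and 2.24% in 4T1 alone. Among tested genes at levels in shPHGDH like those of the 10, 91% did so in 4T1 with Bend3 and 90.5% in 4T1 alone. In EMT6.5, 2 of the 10 genes reached 1 CPM with Bend3 and 3 alone, where the share was 4.91% and 4.62% of genes with 3 or fewer counts in shSCR and 86% and 86.5% of genes at like levels in shPHGDH. In Bend3, 7 of the 10 did so with 4T1, 6 with EMT6.5 and 6 alone, where those shares were 6.28%, 6.09% and 6% of the first set and 83%, 82.3% and 82.1% of the second. Phgdh in these 4T1 libraries was at 4.92 CPM in co-culture and 15.1 CPM alone, both nearer to shPHGDH than to shSCR. Each group is 1 library, so no difference between them was tested, and intervals cover counting error only.

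The receptors behaved unlike each other across lines. Vldlr was at 19.21 CPM in 4T1 with Bend3 (82 counts) and 59.0 CPM in 4T1 alone (254 counts), a ratio of 0.326 (95% counting interval 0.251 to 0.419). In EMT6.5 it had 0 counts with Bend3 and 12 alone, and in Bend3 it was at 157, 164 and 158 CPM with 4T1, with EMT6.5 and alone. Vldlr was thus highest in the endothelial line and lowest in EMT6.5. Adora1 was at 5.62 CPM in 4T1 with Bend3 and 2.32 CPM in 4T1 alone, a ratio of 2.42 (1.12 to 5.67), and had 0 counts in both EMT6.5 libraries and in both co-cultured Bend3 libraries and 2 counts in Bend3 alone. Reads of Adora1 were therefore nearly confined to the 2 4T1 libraries of these 7.

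Dapk1 was at 5.39 CPM in 4T1 with Bend3 (23 counts) and 0.929 CPM in 4T1 alone (4 counts), a ratio of 5.80 (1.98 to 23.1). It had 6 counts in Bend3 with 4T1, 2 in Bend3 with EMT6.5 and none in Bend3 alone or in EMT6.5. Edaradd was at 1.64 CPM in 4T1 with Bend3 and 1.39 CPM in 4T1 alone, a ratio of 1.18 whose interval of 0.339 to 4.24 spans 1. The highest levels of Edaradd were in the endothelial line, at 9.70 CPM with 4T1, 15.8 CPM with EMT6.5 and 6.49 CPM alone, and its ratio with EMT6.5 was 2.44 (1.61 to 3.79). Nkd2 had 5 counts in 4T1 with Bend3 and 15 in 4T1 alone, a ratio of 0.336 (0.0956 to 0.973), and 2.89, 2.43 and 3.14 CPM in Bend3 with 4T1, with EMT6.5 and alone.

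Within the co-culture libraries Pitx1 had nearly all its reads in those of 4T1. It was at 15.5 CPM with Bend3 (66 counts) and 13.2 CPM alone (57 counts), a ratio of 1.17 (0.807 to 1.69). In the other 5 libraries it had 1 count, in EMT6.5 with Bend3. Its level in both 4T1 libraries was close to the 13.01 CPM of shPHGDH, while the shSCR libraries, also of 4T1, had 0, 1 and 1 counts. Sall2 had 14 counts in 4T1 with Bend3 and none in 4T1 alone, at least 4.71-fold higher with a floor of 3 counts. It was at 6.98, 4.69 and 4.60 CPM in Bend3 with 4T1, with EMT6.5 and alone, and had no count in EMT6.5.

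Ubqln2 was at 20.4 CPM in 4T1 with Bend3 and 11.8 CPM in 4T1 alone, a ratio of 1.72 (1.204 to 2.48). It was at 85.1 CPM in EMT6.5 with Bend3, 76.1 CPM in EMT6.5 alone and 77.1, 73.5 and 66.9 CPM in Bend3 with 4T1, with EMT6.5 and alone. The 2 4T1 libraries were thus the lowest of the 7 for Ubqln2. Cplx2 was at 1.64 CPM in 4T1 with Bend3 and 3.02 CPM in 4T1 alone, at 9.60 CPM and 5.34 CPM in EMT6.5 with Bend3 and alone, and at 20.4, 22.1 and 24.7 CPM in the Bend3 libraries. Its ratio in 4T1 was 0.543, with an interval of 0.183 to 1.46 that spans 1, and that in EMT6.5 was 1.80 (1.15 to 2.81). Serpina3h had 0 counts in each of the 7 libraries, so its reads were seen in the knockdown table only. Its neighbour Serpina3g, with which it shares sequence, had 13 counts in 4T1 alone and 2 in 4T1 with Bend3. In the co-culture libraries 48.2% to 55.3% of tallied alignments were set aside as not unique, which bears on genes with shared sequence.

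Counted by size, 5 of the 9 genes with reads changed 2-fold or more in 4T1: Sall2, Dapk1 and Adora1 were higher with Bend3 and Vldlr and Nkd2 lower, where 33% of the 13026 genes of that comparison passed the same size (18.5% higher and 14.5% lower). Apart from Vldlr these rest on few counts: 14 and 0 for Sall2, 23 and 4 for Dapk1, 24 and 10 for Adora1, and 5 and 15 for Nkd2. The 33% was not matched for level, so no excess is read from the count. In EMT6.5 Ubqln2 and Cplx2 met the level filter of a mean of 1 CPM and neither changed 2-fold, against 20.3% of 12896 genes (9.92% higher and 10.4% lower). In Bend3 the comparisons share the library of Bend3 alone. None changed 2-fold with 4T1, against 12.7% of 12535 genes (7.28% higher and 5.42% lower). Edaradd was 2-fold higher with EMT6.5, against 11.5% of 12468 genes (6.33% higher and 5.17% lower). Endothelial markers moved with the 4T1 comparison. The 8 summed to 402 CPM in 4T1 with Bend3 and 138 CPM in 4T1 alone, against 6411 CPM in Bend3 alone. Flt1 was at 283 CPM, 97.8 CPM and 357 CPM in these 3 libraries, most of the sum in both from 4T1. Flt1 also averaged 42.3 CPM in shPHGDH and 25.5 CPM in shSCR, where no Bend3 cells were grown. Pecam1 was at 30.9 CPM, 8.36 CPM and 2261 CPM in the same 3 libraries as the sums. None of the 8 was at 0 in either 4T1 library. Epithelial markers moved too, with Epcam at 195.6 CPM in 4T1 with Bend3 and 70.4 CPM in 4T1 alone. Sall2 has reads in Bend3. Dapk1 and Adora1 had 0 and 2 counts in Bend3 alone, Dapk1 had 6 counts in Bend3 with 4T1, and Vldlr was at 158 CPM in Bend3 alone. The part of endothelial RNA in the 4T1 values of any of these genes was not tested.

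**Figure D4:**
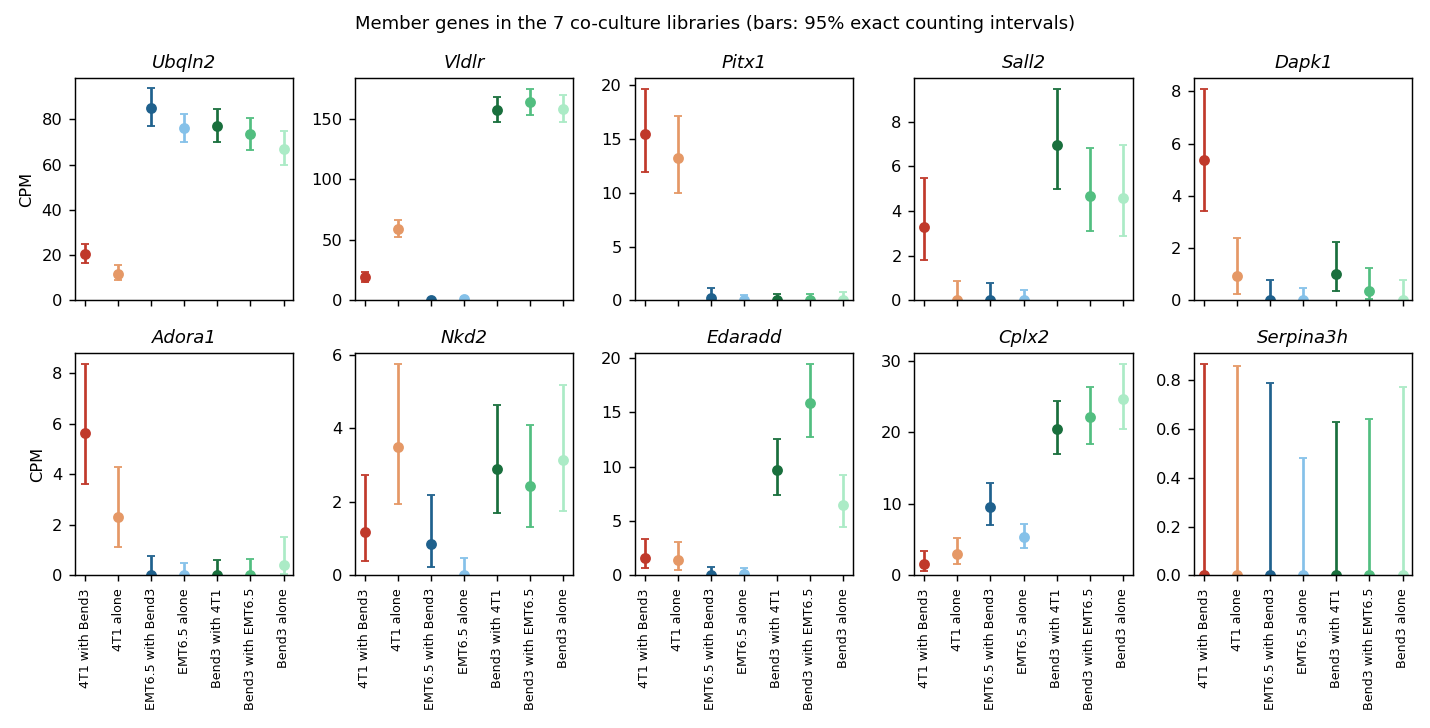
CPM (y axes, linear, each from 0) of the 10 genes in the 7 co-culture libraries; points are single libraries and bars 95% exact counting intervals. Pitx1 is at 15.5 and 13.2 CPM in 4T1 with Bend3 and alone with at most 1 count elsewhere, Vldlr, Edaradd and Cplx2 are highest in Bend3, and Serpina3h is at 0 throughout.

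For each gene the pattern over the 7 libraries was set against 13515 genes that averaged 1 CPM or more, as the Pearson correlation of log2(CPM + 1). The points share 3 cell lines, so the values describe line differences and carry no test. Most alike were Apc2 and Grhl2 for Pitx1 (r = 0.999 for both), Tmc4 (0.994) and Map7 (0.986) for Adora1, and Odf3l1 (0.984) and Olfm1 (0.977) for Dapk1. Grhl2, an epithelial transcription factor, was at 29.1 CPM in 4T1 with Bend3 and 24.9 CPM in 4T1 alone and at 0 elsewhere. Unlike Pitx1, it was at 81.4 CPM in shPHGDH and 77.5 CPM in shSCR. For genes with endothelial reads the most alike were Mgat4b (0.996) and B4galt4 (0.994) for Vldlr, Nfkbid (0.995) and Prickle2 (0.993) for Edaradd, Abcc5 (0.993) and Rock2 (0.989) for Cplx2, and Add2 (0.994) and Stap2 (0.992) for Sall2. Add2 was at 19.4 CPM in 4T1 with Bend3, 0.232 CPM in 4T1 alone and 44.4 CPM in Bend3 alone. Ubqln2 was most like Fgfr1 (0.995) and Nr2f6 (0.994), and Nkd2 most like Mrpl33 (0.996) and Rraga (0.986). Fgfr1, a fibroblast growth factor receptor, had 0 counts in shSCR as well and 0.332 CPM in shPHGDH, under the level the rule asks for.

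MDA-MB-231 gave a replicated test in libraries that the rule did not use. There, 9 of the 10 genes have a human gene of the same name, and 6 passed the low-count filter. PITX1 was called higher, SALL2 and DAPK1 lower, and UBQLN2, VLDLR and EDARADD were not called, where 44.5% of the 17663 tested genes were called (21.6% higher and 22.9% lower). A count of 3 of 6 is close to that background. Of the calls 48.5% were higher, and 38.4% when scaled by library totals, which left the calls of these 6 genes as they were.

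DAPK1 (ENSG00000196730) had 0 counts in each of the 3 libraries labelled PHGDH-overexpressing and 162, 121 and 111 counts in control, or 6.82, 6.20 and 5.63 CPM. The groups did not overlap, which held for 53% of the tested genes. DAPK1 was at least 131-fold lower with a floor of 3 counts over the group (edgeR adjusted p = 3.16e-12). Of 16007 genes at 1 CPM or more in control, 16 (0.1%) had no count in the libraries labelled PHGDH-overexpressing, and DAPK1 is one of them. SALL2 (ENSG00000165821) was at 0.355, 0.592 and 0.255 CPM in the libraries labelled PHGDH-overexpressing and at 4.97, 4.77 and 4.11 CPM in control, again without overlap. It was 10.6-fold lower (log2 fold change -3.41, SE 0.27, edgeR adjusted p = 8.34e-10). Both genes thus had more reads in 1 arm of each experiment and few or none in the other: more in shPHGDH for 4T1 and more in control for MDA-MB-231. By measured PHGDH these arms are unlike. In 4T1 the arm with more reads had the lower Phgdh (means of 20.6 CPM against 170 CPM). In MDA-MB-231 it had the higher PHGDH (16.8 CPM against 5.29 CPM). Whether the MDA-MB-231 labels or columns are exchanged, or a transgene went uncounted, cannot be told from the tables. An exchange would turn round the MDA-MB-231 directions given by label.

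PITX1 (ENSG00000069011) was at 75.8, 70.7 and 77.2 CPM in the libraries labelled PHGDH-overexpressing and at 47.6, 49.4 and 51.6 CPM in control, means of 74.6 ± 3.44 and 49.5 ± 2.01 CPM (SD, n = 3 each). The groups did not overlap, and PITX1 was 1.57-fold higher (log2 fold change 0.65, SE 0.07, edgeR adjusted p = 8.41e-08). Unlike mouse Pitx1 in shSCR, it was well expressed in both arms. UBQLN2 was at 48.6, 49.7 and 47.7 CPM against 50.2, 47.5 and 46.5 CPM in control (log2 fold change 0.08, SE 0.07, adjusted p = 0.39). VLDLR was at 15.3, 13.2 and 13.3 CPM against 16.7, 16.1 and 13.5 CPM (log2 fold change -0.10, SE 0.10, adjusted p = 0.473), and EDARADD at 0.659, 1.40 and 1.43 CPM against 0.673, 0.871 and 0.963 CPM (log2 fold change 0.55, SE 0.33, adjusted p = 0.186). The groups of these 3 genes overlapped. ADORA1 had 2 counts against 6, CPLX2 0 against 3 and NKD2 none in either group, under the filter, so no difference was detectable for them at this depth. SERPINA3, the human relative of the mouse cluster, had 2 entries in the table and was given no value.

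**Figure D5:**
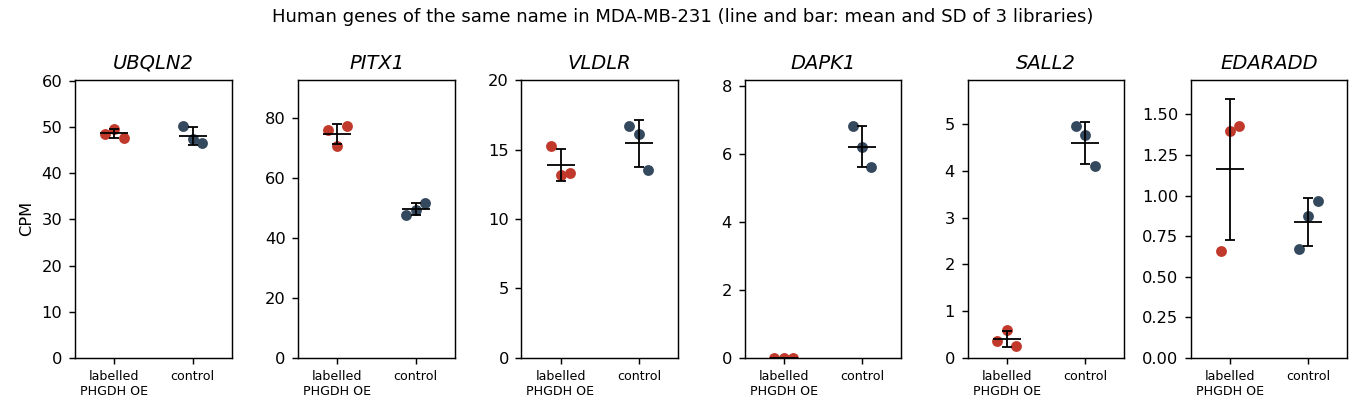
CPM (y axes, linear, each from 0) of 6 human genes in the 3 MDA-MB-231 libraries labelled PHGDH-overexpressing (left) and 3 controls (right); points are libraries, lines and bars the mean and SD. DAPK1 has no count in the labelled libraries, SALL2 is at 0.255 to 0.592 CPM there against 4.11 to 4.97 CPM, and PITX1 is higher there by 1.57-fold.

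Near relatives and direct partners of the 10 genes were listed and read in both fits. In the knockdown 42 of 77 listed genes were tested, of which 20 rose, 11 fell and 11 were not called, with a median log2 fold change of 0.15 beside -0.01 for all tested genes. This is 73.8% called, beside 59.7% of all genes. Of the relatives and partners of Vldlr 9 of 11 tested rose and 1 fell, where 30.1% of all tested genes rose. Lrp1, an endocytic receptor of the same family, was at 319 CPM in shPHGDH against 53.2 CPM in shSCR (log2 fold change 2.62, SE 0.04, edgeR adjusted p = 8.65e-28), and Sorl1, a sorting receptor, at 27.1 CPM against 8.40 CPM (1.73). Smaller rises were seen for Lrp10 (0.76), Lrp12 (0.61) and the Wnt co-receptor Lrp5 (0.37), while Lrp8, the other reelin receptor, fell (-0.13) and Lrp6 was not called (adjusted p = 0.925). Unlike Vldlr, each of these had reads in both arms.

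The paralogs of Ubqln2 rose by little, Ubqln1 by 0.17 and Ubqln4 by 0.24 on the log2 scale, at 308 CPM against 282 CPM and 241 CPM against 211 CPM. Shuttle factors of the ubiquilin family were thus present in shSCR without Ubqln2. The Dapk1 relative Dapk3 fell (-0.39, 24.1 CPM against 32.9 CPM). Of the partners of Adora1 3 of 4 tested rose and 1 fell, of those of Nkd2 3 of 9 rose and 1 fell, of those of Cplx2 1 of 4 rose and 2 fell, and of those of Edaradd 2 of 4 fell and none rose. In MDA-MB-231 51 of 68 listed genes were tested, of which 16 rose, 13 fell and 22 were not called, with a median of 0.02 beside -0.01 for all genes; 56.9% were called, beside 44.5%. LRP8 rose in the libraries labelled PHGDH-overexpressing (83.0 CPM against 53.5 CPM, log2 fold change 0.69, edgeR adjusted p = 1e-08), as did LRP5 (0.30) and ADORA2B (0.23), and UBQLN4 fell (-0.20). LRP1 (0.21) and DAPK3 (0.24) were called higher as well, but lost their call under several alternatives, with edgeR adjusted p of up to 0.239 and 0.0706. UBQLN1, LRP6, LRP10, LRP12 and SORL1 were not called.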

How the data were processed

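Per the submitters' processing notes, mouse reads were handled on GRCm38 with HISAT2 2.1.0, Trim Galore 0.5.0 and an HTSeq release of unstated version. The human build and how reads were counted are not given in the sources used here. Deposited tables hold raw gene counts; per the labels, stranded mRNA libraries were read as 50 bp single ends. The knockdown table, which has no summary lines, held 16 library columns, of which 10 were not used. CPM were computed from library totals. The knockdown and MDA-MB-231 experiments were fitted separately with edgeR 4.0.16 (R 4.3.3, limma 3.58.1; TMM, filterByExpr, quasi-likelihood test). A gene was called at an adjusted p under 0.05 (Benjamini-Hochberg). DESeq2 1.42.0, other scalings, no filter, lane, a replicate block and omission of each replicate were alternatives. The edgeR tests were checked on simulated counts with a common spread and far fewer changed genes than were called here. That check did not cover all-or-none changes. Co-culture groups hold 1 library each; ratios carry exact 95% counting intervals and the floor is 3 counts. No table held molecular identifiers.

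The genes and lists were chosen with earlier results of these data known. All 10 genes are named in every comparison; of other genes meeting the thresholds the 5 most abundant and the 3 nearest each threshold, the 2 most alike per gene, paralogs at 5 CPM or more and neighbours called with a 2-fold change. One paralog is not reported here. The labels do not tie equal replicate numbers to a shared culture, and no block was used. Gene positions came from GENCODE vM21, which shares 95.6% of the knockdown symbols, and promoters from RefSeq GRCm38.p6.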

Additional observations from a re-analysis of the deposited data

Results flagged for a closer look

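The few counts of Nkd2 pointed in opposite directions in the tumour lines. Its ratio was 0.336 (95% counting interval 0.0956 to 0.973) in 4T1 with Bend3 over 4T1 alone, from 5 and 15 counts. In EMT6.5 it had 4 counts with Bend3 and 0 alone, and the lower end of the interval of that ratio was 1.08. Its mean in EMT6.5 was under the level filter of 1 CPM. Each group is 1 library and the difference between the lines was not tested.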

How the results depend on the processing

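The knockdown contrast chose the 10 genes, so their calls under its alternatives were not read. The MDA-MB-231 calls of PITX1, SALL2 and DAPK1 and the missing calls of UBQLN2, VLDLR and EDARADD did not change under any alternative run. Thresholds set how many genes met the rule: 14 with 0 shSCR counts, 44 with 10 or fewer, 50 at 0.5 CPM and 10 at 2 CPM, 6 of the last being described here; it was 24 to 36 without one replicate. In the family list of the knockdown 7 genes fell with lane as a covariate and with lane 6 libraries only (1 shSCR library, assumed to vary like the others), and 7 to 10 without one replicate, with 7 without shPHGDH replicate 1 and without shSCR replicate 1; the cause was not tested. At a mean of at least 5 CPM, fewer genes enter the co-culture counts: 1331 were 2-fold higher in 4T1, 515 higher and 716 lower in EMT6.5, 283 and 187 in Bend3 with 4T1, and 251 and 167 in Bend3 with EMT6.5. With no filter these were 4580 and 3720, 3208 and 3549, 3144 and 2659, and 3219 and 2557. Library totals moved MDA-MB-231 calls to 3055 higher and 4895 lower, 38.4% higher, against 3816 and 4048 (48.5%). In MDA-MB-231 LRP1 lost its call by library totals (adjusted p = 0.15), with DESeq2 (0.054), without labelled replicate 1 or 3 (0.0954 and 0.239) and without control replicate 2 or 3 (0.164 and 0.194). DAPK3 lost it by library totals (0.0554), without labelled replicate 3 (0.0706) and without control replicate 1 or 2 (0.0564 and 0.0571). LRP10 (0.0125) and LRP12 (0.0101) were called without labelled replicate 2, and LRP12 also by library totals (0.0269).

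Same-numbered replicates did not deviate together (r from -0.0546 to -0.000138 in 4T1 and from -0.0228 to 0.0381 in MDA-MB-231). A replicate block gave 3356 higher and 3229 lower calls in the knockdown and 3758 and 4003 in MDA-MB-231; PITX1, SALL2 and DAPK1 were again called in MDA-MB-231. Co-culture libraries, at 4.27 to 7.67 M counts, give wide intervals for genes with few counts.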
